A study of Rattus norvegicus with 15 samples.

Results

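The genes described here encode 7 claudins (Cldn1, Cldn2, Cldn3, Cldn4, Cldn7, Cldn10 and Cldn16), occludin (Ocln) and 2 cadherins of kidney epithelium (Cdh1 and Cdh16). All 10 genes were found on the array by their gene symbol, through 14 probe sets whose annotation gave a single symbol, of 31042 probe sets and 14217 named genes measured in all. A probe set is a group of short oligonucleotides on the array that together report 1 transcript. Cldn1 had 3 probe sets, Ocln and Cdh1 had 2 each, and the other genes had 1. No probe set with several symbols named a member.

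The study asked how gene expression in a rat kidney graft differs between acute rejection and transplantation without rejection. In the allogeneic group (aTX, n = 5), kidneys of Lewis-Brown-Norway (LBN) rats were placed in Lewis (LEW) rats, in the syngeneic group (sTX, n = 5) LBN kidneys were placed in LBN rats, and in the control group (ctr, n = 5) native LBN kidneys were taken from the donors as their second kidney. All animals were male and 10 to 12 weeks old, recipients had lost both of their own kidneys, no immunosuppressive drug was given, and grafts were removed on day 4. A control and a graft can therefore share a donor, although which ones do is not given. These strains follow the methods and the series' design, whereas the source labels of the grafts name Lewis donors, and the treatment label of sTX 4 and sTX 5 says allogeneic against their titles. Both arrays were kept as syngeneic, and leaving both out changed 1 call among the genes described here (Cldn16, given with its values).

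Each kidney was hybridised to 1 Affymetrix Rat Genome 230 2.0 array, and values are MAS5 signals on a linear scale with a trimmed mean of 100 on every array. The hybridization times in the instrument records were split into runs wherever consecutive arrays lay over an hour apart. The first run held ctr 1 to ctr 5, aTX 2, aTX 3 and aTX 4, and the second held sTX 1 to sTX 5, aTX 1 and aTX 5. They are called wash runs here, a name chosen for this report. No run held both sTX and ctr kidneys, so that comparison has no value within a run. RNA measures moved with the groups too. The 3' over 5' signal ratio of Gapdh averaged 1.04 ± 0.025 in aTX, 1.10 ± 0.024 in sTX and 1.17 ± 0.047 in ctr kidneys, and that of actin 1.23 ± 0.058, 1.51 ± 0.060 and 1.74 ± 0.168 in the same order of groups (SD, n = 5 each). The part of wash run and RNA measures in the results was not tested, except where a value with wash run as a block is given.

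Tight junctions seal the space between neighbouring epithelial cells near their apical side, and claudins set what that seal lets through. Some claudins form pores for particular ions and water, and others mainly act as barriers, so that each nephron segment has its own mixture. Occludin is another membrane-spanning protein of the same strands. Cadherins hold the cells together below the tight junction by binding the like molecule on the next cell and linking to actin through catenins.

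Promoter sequence was available from RefSeq (GRCr8 assembly) for 6 of the 10 genes (Cldn1, Cldn3, Cldn7, Cldn10, Cldn16 and Ocln), as the 250 bases before the annotated start. Cldn2, Cldn4, Cdh1 and Cdh16 are described by their signals only. The 3 promoters below are examples and do not cover every pattern described further on. Cldn7 was higher in both kinds of graft, and Ocln and Cldn10 were lower in both, although their sTX calls were lost with wash run as a block. Cldn10 had the largest fold difference between aTX and ctr kidneys among these genes. Capitals in Cldn7 and Ocln mark CAGGTG or its reverse complement CACCTG, the E-box letters read by Snail and Zeb repressors. Capitals in Cldn10 mark the reverse complement of GTTAAT, a half-site of the HNF1 factors of tubule cells.
Cldn7 promoter, chr10:55188420-55188669, plus strand: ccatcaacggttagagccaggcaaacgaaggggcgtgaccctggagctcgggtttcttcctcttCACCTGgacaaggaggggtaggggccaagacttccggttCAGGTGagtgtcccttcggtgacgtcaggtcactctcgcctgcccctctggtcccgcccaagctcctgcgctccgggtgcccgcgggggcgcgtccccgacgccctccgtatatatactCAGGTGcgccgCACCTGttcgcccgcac
Ocln promoter, chr2:33441199-33441448, minus strand: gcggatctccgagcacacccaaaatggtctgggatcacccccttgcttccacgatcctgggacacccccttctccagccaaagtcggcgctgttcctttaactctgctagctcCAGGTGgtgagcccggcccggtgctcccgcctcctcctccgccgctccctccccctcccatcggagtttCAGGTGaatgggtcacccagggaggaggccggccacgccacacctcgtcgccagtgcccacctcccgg
Cldn10 promoter, chr15:102269608-102269857, plus strand: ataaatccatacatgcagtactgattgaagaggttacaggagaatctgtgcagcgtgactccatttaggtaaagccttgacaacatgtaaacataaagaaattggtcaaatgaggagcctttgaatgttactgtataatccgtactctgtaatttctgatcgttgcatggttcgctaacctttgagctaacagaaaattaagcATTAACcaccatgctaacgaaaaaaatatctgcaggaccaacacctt

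On both strands, CAGGTG was present in 15.9% of 33469 rat promoters of the same length. The Cldn7 window held 4 copies, beginning at -186, -147, -28 and -17 from the start site. The Ocln window held 2 copies, at -137 and -68, and lies inside the annotated gene, so the start it precedes is not the outermost of that gene. Cldn3 held 1 copy at -248, and Cldn1, Cldn10 and Cldn16 held none. GTTAAT was present in 6.45% of promoters, and among the 6 genes it was found in Cldn10 alone, at -47. A STAT site (TTCNNNGAA, in 7.67% of promoters) and the TATA box letters TATAAA (12.9%) matched in none of the 6 windows. Base composition also differed. Guanine and cytosine made up 65.6% of the Cldn7 window and 66.4% of the Ocln window, with 22 and 16 CpG dinucleotides, against 38% and 5 CpG in Cldn10 and medians of 51.2% and 5 CpG over all promoters. A match is a match of letters only, and whether a factor binds there was not measured.

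Against native kidneys, the allogeneic grafts carried lower signals of the pore-forming claudins Cldn2, Cldn10 and Cldn16, of Cldn3, of occludin and of the kidney-specific cadherin Cdh16, and higher signals of Cldn1, Cldn4 and Cldn7. The signal of E-cadherin (Cdh1) did not pass the test. In aTX against ctr kidneys, 4 of the 14 probe sets passed the test as higher and 7 as lower (limma, two-sided, Benjamini-Hochberg adjusted p below 0.05 over all 31042 probe sets), where 42.4% of all probe sets were called, 20.2% as higher and 22.2% as lower. Their median log2 change was -0.59, beside -0.075 over all probe sets. Groups did not overlap for 7 of the 14, 2 with aTX kidneys above and 5 with aTX kidneys below, beside 33.2% of all probe sets (16.4% above and 16.9% below). All 11 calls remained with wash run as a block.

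In the syngeneic grafts 5 probe sets were higher and 4 lower than in ctr kidneys, where 17.7% of all probe sets were called, 11.4% as higher and 6.32% as lower. Their median was 0.096, beside 0.088 over all probe sets. Groups did not overlap for 6 of 14, 3 with sTX kidneys above and 3 below, beside 13.2% of all (8.44% above and 4.72% below). With wash run as a block 1 of these 9 calls remained, that of a Cldn1 probe set. Over all probe sets, 713 were called higher and 255 lower with that block, beside 3539 and 1961 without it. In that fit the comparison rests on how aTX arrays of the first run differed from aTX arrays of the second.

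Between the grafts, the aTX kidneys had more signal than the sTX kidneys on 1 probe set (Cldn4) and less on 6, where 36% of all probe sets were called, 13.9% as higher and 22.1% as lower. The median was -0.33, beside -0.18 over all probe sets. For all 7 the groups did not overlap, beside 29.1% of all probe sets (12.1% with aTX kidneys above and 17% below), and all 7 calls remained with wash run as a block. The 3 comparisons share their samples in pairs, so their values are given side by side and not as separate evidence.

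**Figure D1:**
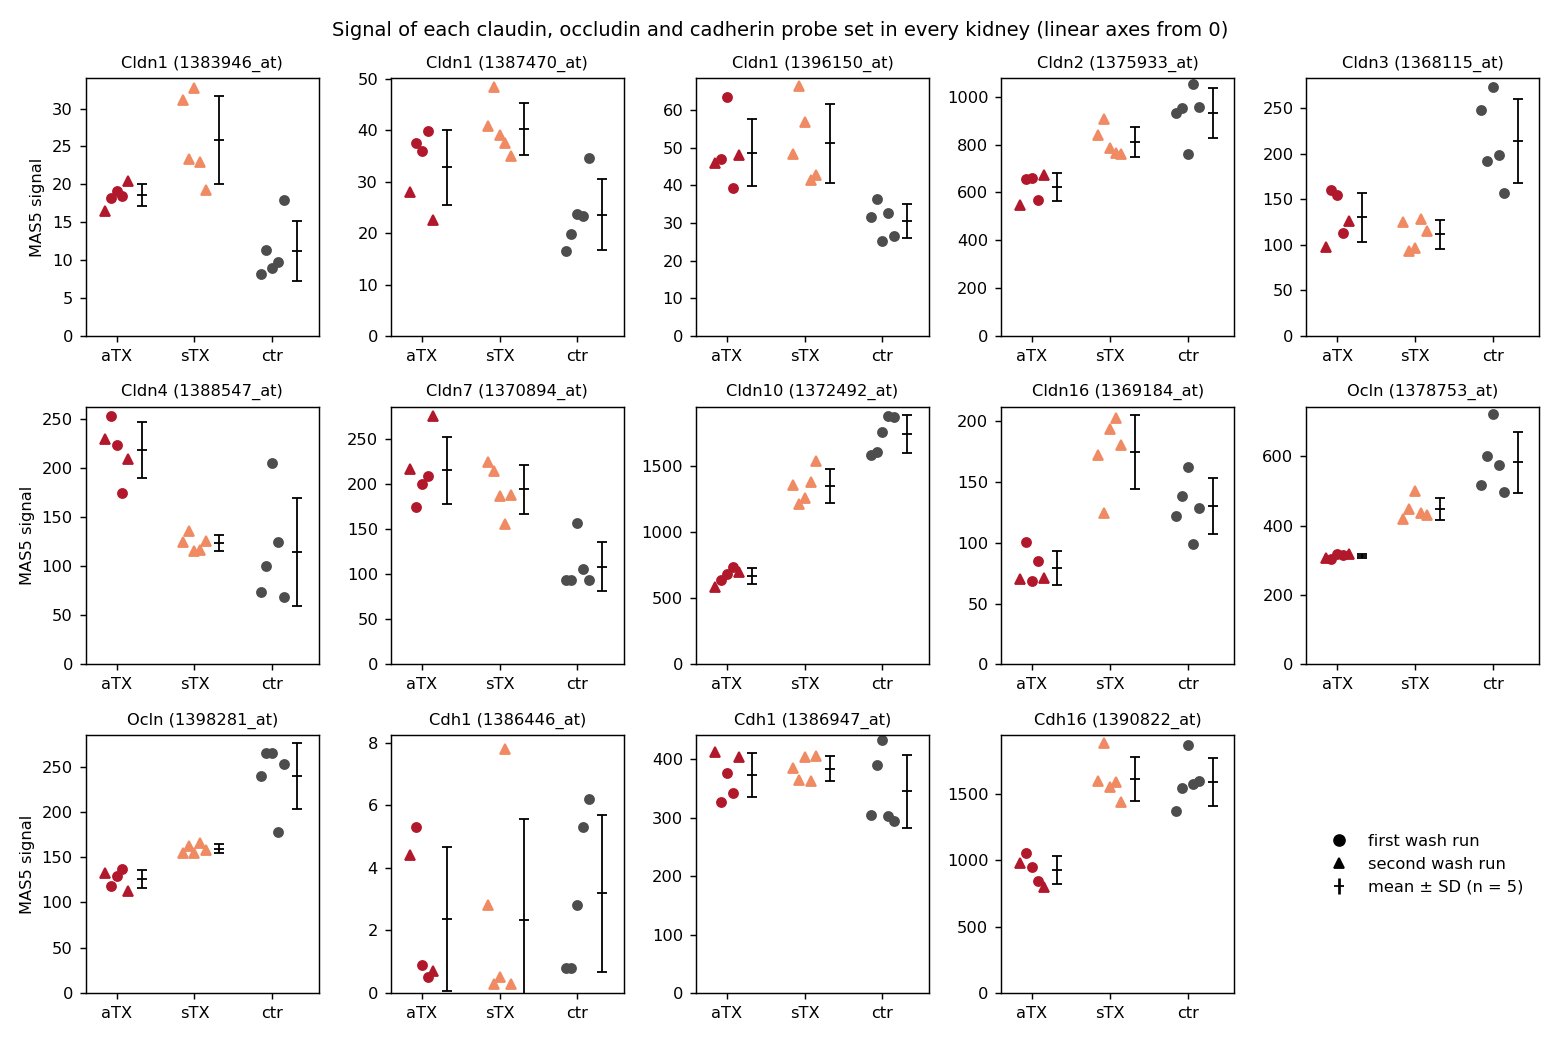
MAS5 signal (linear axes from 0) of each of the 14 probe sets in every kidney, with aTX, sTX and ctr from left to right in each panel. Circles are kidneys of the first wash run and triangles those of the second, and bars give mean ± SD (n = 5), with the lower SD bar of sTX ending at the axis for the weak Cdh1 probe set. The aTX kidneys lie below all ctr kidneys for Cldn2, Cldn10, both Ocln probe sets and Cdh16, and above all of them for Cldn7.

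Cldn10 had the largest fold difference of the group. It encodes claudin-10, whose splice variants form an anion pore in the proximal tubule and a cation pore in the thick ascending limb, as known mainly from mice and cultured cells. Its signals were 584.7, 638.3, 684.0, 739.8 and 698.7 in aTX 1 to aTX 5, 1356.2, 1211.0, 1261.1, 1379.2 and 1543.2 in sTX 1 to sTX 5, and 1585.3, 1610.2, 1757.9, 1883.6 and 1876.5 in ctr 1 to ctr 5. The 3 groups did not overlap in any pair. Cldn10 was 2.61-fold lower in aTX than in ctr kidneys (log2 change -1.38 ± 0.08 SE, adjusted p = 2.17e-11) and 2.02-fold lower in aTX than in sTX kidneys (-1.01 ± 0.08, adjusted p = 4.65e-09). In sTX kidneys it was 1.29-fold lower than in ctr kidneys (-0.37 ± 0.08, adjusted p = 0.00274), a call that was lost with wash run as a block (-0.27, adjusted p = 0.388). Which splice variants this probe set reports was not determined.

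Cldn2 encodes claudin-2, a pore for cations and water in the proximal tubule. Its signals were 546.9, 655.4, 661.0, 567.8 and 672.0 in aTX kidneys, 840.0, 908.4, 784.0, 763.5 and 758.4 in sTX kidneys, and 930.0, 951.2, 762.2, 1051.0 and 955.4 in ctr kidneys, in the order of their replicate numbers as in all lists that follow. Every aTX kidney lay below every sTX and ctr kidney, while sTX and ctr kidneys overlapped through ctr 3. Cldn2 was 1.50-fold lower in aTX than in ctr kidneys (log2 change -0.58 ± 0.09 SE, adjusted p = 9.92e-06) and 1.31-fold lower than in sTX kidneys (-0.39 ± 0.09, adjusted p = 0.00110). Between sTX and ctr kidneys the log2 change was -0.19 (95% interval -0.37 to -0.015, adjusted p = 0.135). Without ctr 3 that difference was -0.26 and passed the test.

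Claudin-16, encoded by Cldn16, works with claudin-19 in the thick ascending limb, where the pair serves calcium and magnesium reabsorption, and loss of either in humans causes renal wasting of both ions. The Cldn16 signals were 70.2, 100.8, 69.0, 84.8 and 71.3 in aTX kidneys, 172.1, 124.8, 193.2, 202.5 and 180.3 in sTX kidneys, and 122.1, 138.1, 162.3, 98.8 and 128.9 in ctr kidneys. The aTX kidneys all lay below the sTX kidneys, whereas aTX 2 lay above the lowest control, ctr 4. Cldn16 was 2.20-fold lower in aTX than in sTX kidneys (log2 change -1.14 ± 0.14 SE, adjusted p = 2.18e-06) and 1.64-fold lower than in ctr kidneys (-0.71 ± 0.14, adjusted p = 0.000332). In sTX kidneys it was 1.34-fold higher than in ctr kidneys (0.42 ± 0.14, adjusted p = 0.0455), which is the opposite direction to the aTX kidneys. That last call was close to the threshold and was lost in 10 of 15 fits that each left out 1 array, without sTX 4 and sTX 5 (0.32), after centring each array on its median (0.23), and with wash run as a block (0.67, adjusted p = 0.176).

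Cldn19, the partner gene, is no member of the group and is named after its values were seen. Its signals averaged 121.3 ± 16.3 in aTX, 263.2 ± 25.2 in sTX and 134.1 ± 33.8 in ctr kidneys (SD, n = 5 each). It was 2.0-fold higher in sTX than in ctr kidneys (log2 change 1.0 ± 0.13 SE, adjusted p = 2.20e-05, and 0.66 with adjusted p = 0.126 under the wash run block). In aTX kidneys it was lower than in sTX kidneys (-1.12 ± 0.13, adjusted p = 1.13e-06) and did not pass the test against ctr kidneys (-0.12, adjusted p = 0.525).

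Cldn3, Cldn4 and Cldn7 encode claudins of the distal nephron and collecting duct. Claudin-3 acts as a barrier in cultured epithelia, claudin-4 limits sodium passage and, with claudin-8, lets chloride through in collecting duct cells, and claudin-7 also lies along the basolateral membrane. The 3 genes did not move alike, with Cldn3 lower in both grafts, Cldn7 higher in both grafts and Cldn4 higher in aTX kidneys. In GRCr8, Cldn3 and Cldn4 both lie on chromosome 12.

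The Cldn4 signals were 230.3, 253.0, 224.1, 175.3 and 209.6 in aTX kidneys, 124.8, 136.0, 116.0, 116.8 and 126.3 in sTX kidneys, and 73.9, 100.6, 205.0, 124.4 and 69.1 in ctr kidneys. All aTX kidneys exceeded all sTX kidneys, and 4 of the 5 ctr kidneys lay below every aTX kidney, with ctr 3 as the exception. Cldn4 was 2.06-fold higher in aTX than in ctr kidneys (log2 change 1.04 ± 0.20 SE, adjusted p = 0.000255) and 1.75-fold higher than in sTX kidneys (0.81 ± 0.20, adjusted p = 0.00328). It was the 1 probe set of the 14 that was higher in aTX than in sTX kidneys. Between sTX and ctr kidneys the log2 change was 0.23 (95% interval -0.20 to 0.65, adjusted p = 0.512), and without ctr 3 it was 0.47 and passed the test.

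For Cldn7 the signals were 216.9, 174.0, 199.9, 208.2 and 275.4 in aTX kidneys, 224.6, 214.0, 186.9, 155.8 and 188.1 in sTX kidneys, and 93.3, 93.2, 157.0, 105.2 and 93.4 in ctr kidneys. Both graft groups lay near a doubling of the ctr level, and the sole overlap was between sTX 4 and ctr 3. Cldn7 was 2.0-fold higher in aTX than in ctr kidneys (log2 change 1.0 ± 0.14 SE, adjusted p = 6.43e-06) and 1.81-fold higher in sTX than in ctr kidneys (0.86 ± 0.14, adjusted p = 0.000229, lost under the wash run block at 0.52 and adjusted p = 0.296). The grafts differed from each other by 0.14 (95% interval -0.16 to 0.44, adjusted p = 0.487).

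The Cldn3 signals were 97.7, 159.9, 154.7, 113.3 and 125.6 in aTX kidneys, 125.0, 93.7, 96.5, 127.9 and 115.3 in sTX kidneys, and 247.4, 191.6, 273.4, 198.7 and 157.3 in ctr kidneys. All sTX kidneys lay below all ctr kidneys, while aTX 2 just exceeded ctr 5. Cldn3 was 1.64-fold lower in aTX than in ctr kidneys (log2 change -0.71 ± 0.15 SE, adjusted p = 0.000590) and 1.89-fold lower in sTX than in ctr kidneys (-0.92 ± 0.15, adjusted p = 0.000207, lost under the wash run block at -0.57 and adjusted p = 0.276). Between aTX and sTX kidneys the log2 change was 0.21 (95% interval -0.11 to 0.53, adjusted p = 0.319).

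Cldn1 encodes claudin-1, a barrier claudin that in the kidney is known from the parietal cells of Bowman's capsule. Its 3 probe sets had group means of at most 51.2, against array medians of 24.4 to 30.1, so they report a weak signal. All 3 were highest in sTX kidneys on average and lowest in ctr kidneys. Probe set 1396150_at read 45.9, 47.1, 63.4, 39.4 and 48.0 in aTX kidneys, 48.3, 66.4, 57.0, 41.5 and 42.7 in sTX kidneys, and 31.7, 36.5, 25.3, 32.8 and 26.7 in ctr kidneys. Every graft of either kind lay above every control there, with 1.59-fold higher signal in aTX (log2 change 0.67 ± 0.16 SE, adjusted p = 0.00207) and 1.66-fold higher signal in sTX than in ctr kidneys (0.73 ± 0.16, adjusted p = 0.00317).

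Probe set 1383946_at read 16.5, 18.2, 19.1, 18.4 and 20.5 in aTX kidneys, 31.1, 23.4, 32.7, 22.9 and 19.2 in sTX kidneys, and 8.2, 11.3, 9.0, 9.7 and 17.9 in ctr kidneys. It was 1.72-fold higher in aTX than in ctr kidneys (log2 change 0.78 ± 0.25 SE, adjusted p = 0.0136) and 2.35-fold higher in sTX than in ctr kidneys (1.24 ± 0.25, adjusted p = 0.00121). At these low signals the size depends on the scale, and with 16 added to every signal the log2 changes were 0.35 in aTX and 0.62 in sTX against ctr kidneys, both still called. The control ctr 5 stood closest to the grafts on this probe set and on the next. Probe set 1387470_at read 28.1, 37.6, 35.9, 39.8 and 22.5 in aTX kidneys, 40.9, 48.5, 39.1, 37.6 and 35.1 in sTX kidneys, and 16.5, 19.9, 23.7, 23.3 and 34.7 in ctr kidneys. In sTX kidneys it was 1.75-fold higher than in ctr kidneys (0.80 ± 0.20, adjusted p = 0.00812), and this was the call that remained with wash run as a block (1.39, adjusted p = 0.0227). That fit rests on the aTX arrays, where aTX 1 and aTX 5 of the second run read lowest (28.1 and 22.5). The sTX calls of 1383946_at and 1396150_at were lost with that block (adjusted p = 0.152 and 0.174). In aTX kidneys the log2 change of 1387470_at against ctr kidneys (0.49) did not pass the test (adjusted p = 0.0611). It passed without aTX 5 (0.61), without ctr 5 (0.64) and with wash run as a block (0.72, adjusted p = 0.0109). With 16 added to every signal its log2 changes against ctr kidneys were 0.30 in aTX and 0.52 in sTX kidneys. None of the 3 probe sets passed the test between aTX and sTX kidneys, with log2 changes of -0.45, -0.32 and -0.064 for 1383946_at, 1387470_at and 1396150_at, although 1387470_at did so with wash run as a block (-0.67, adjusted p = 0.0488).

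Occludin was graded across the groups on both of its probe sets, lowest in aTX, between in sTX and highest in ctr kidneys. Probe set 1378753_at read 306.4, 303.7, 318.5, 314.7 and 318.8 in aTX kidneys, 420.0, 448.5, 501.1, 437.6 and 430.9 in sTX kidneys, and 518.5, 601.1, 721.5, 574.8 and 496.4 in ctr kidneys. The aTX kidneys varied little (SD 6.99) and lay below all other kidneys, and sTX and ctr kidneys overlapped through sTX 3 and ctr 5. The signal was 1.85-fold lower in aTX than in ctr kidneys (log2 change -0.89 ± 0.08 SE, adjusted p = 2.24e-08), 1.43-fold lower in aTX than in sTX kidneys (-0.52 ± 0.08, adjusted p = 4.26e-05) and 1.29-fold lower in sTX than in ctr kidneys (-0.37 ± 0.08, adjusted p = 0.00341).

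The other occludin probe set, 1398281_at, read 132.4, 118.2, 129.2, 137.2 and 112.5 in aTX kidneys, 154.4, 162.8, 155.1, 166.0 and 158.4 in sTX kidneys, and 240.0, 265.1, 265.0, 177.7 and 252.8 in ctr kidneys. No group overlapped another, and ctr 4 stood below the other controls. The signal was 1.89-fold lower in aTX than in ctr kidneys (log2 change -0.92 ± 0.10 SE, adjusted p = 1.05e-07), 1.27-fold lower in aTX than in sTX kidneys (-0.34 ± 0.10, adjusted p = 0.00753) and 1.49-fold lower in sTX than in ctr kidneys (-0.58 ± 0.10, adjusted p = 0.000237). With wash run as a block, both sTX calls against ctr kidneys were lost at similar size (-0.37 with adjusted p = 0.219, and -0.51 with adjusted p = 0.131).

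Cdh16 and Cdh1 encode 2 epithelial cadherins with different results. Cdh16 encodes kidney-specific cadherin (Ksp-cadherin), which lies along the basolateral membrane of tubule cells. Its signals were 978.8, 1059.8, 951.8, 847.8 and 796.1 in aTX kidneys, 1602.6, 1889.3, 1553.9, 1592.1 and 1442.9 in sTX kidneys, and 1370.1, 1550.3, 1868.8, 1574.5 and 1603.1 in ctr kidneys. All aTX kidneys lay below all other kidneys, while sTX and ctr kidneys overlapped over most of their range. Cdh16 was 1.72-fold lower in aTX than in ctr kidneys (log2 change -0.78 ± 0.09 SE, adjusted p = 6.06e-07) and 1.75-fold lower than in sTX kidneys (-0.80 ± 0.09, adjusted p = 7.29e-07). Between sTX and ctr kidneys the log2 change was 0.022, with a 95% interval of -0.17 to 0.22 (adjusted p = 0.914).

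Cdh1 encodes E-cadherin, the main cadherin of most epithelia and, in the kidney, strongest in distal segments. Probe set 1386947_at read 413.2, 326.6, 377.4, 342.6 and 404.7 in aTX kidneys, 384.7, 364.3, 404.3, 362.6 and 405.5 in sTX kidneys, and 304.2, 390.0, 433.6, 303.7 and 294.5 in ctr kidneys. The 3 groups overlapped, with the widest spread among controls. Its log2 change was 0.12 in aTX against ctr kidneys (95% interval -0.086 to 0.33, adjusted p = 0.365), 0.17 in sTX against ctr kidneys (-0.038 to 0.38, adjusted p = 0.280) and -0.048 in aTX against sTX kidneys (-0.26 to 0.16, adjusted p = 0.765). The upper and lower bounds of these intervals lie closer to 0 than the change of Cdh16 in aTX kidneys. The other Cdh1 probe set, 1386446_at, ranged from 0.5 to 5.3 in aTX, 0.3 to 7.8 in sTX and 0.8 to 6.2 in ctr kidneys, far below the array medians, and its intervals were too wide to say anything of E-cadherin (for sTX against ctr kidneys, -3.24 to 0.88).

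**Figure D2:**
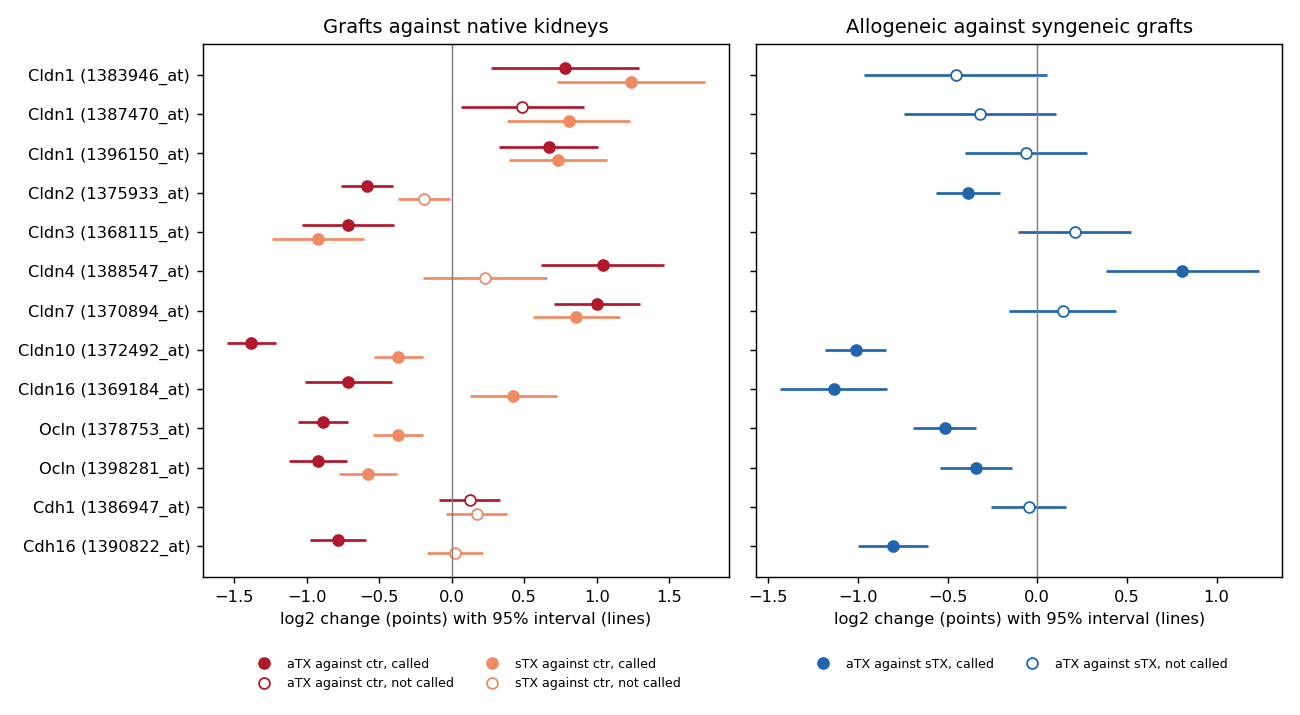
Log2 change of 13 probe sets (points) with its 95% interval from limma (lines), for aTX and sTX against ctr kidneys on the left and aTX against sTX kidneys on the right, with filled points for adjusted p below 0.05 and the weak Cdh1 probe set left out. On the left Cldn10 lies lowest at -1.38 in aTX kidneys and Cldn16 lies on opposite sides of 0 in aTX (-0.71) and sTX kidneys (0.42), and on the right only Cldn4 lies above 0 with a filled point (0.81).

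Unequal change was also read within each array as the log2 ratio of 2 probe sets, which does not depend on array scaling. Its absolute value depends on the probes and is not a ratio of transcripts. The ratio of Cdh16 over Cdh1 (1386947_at) averaged 1.31 ± 0.26 in aTX kidneys (range 0.98 to 1.70), 2.07 ± 0.21 in sTX kidneys (1.83 to 2.38) and 2.22 ± 0.19 in ctr kidneys (1.99 to 2.45) (SD, n = 5 each). The aTX kidneys lay apart from the others, which overlapped. The ratio of Cldn10 over Cldn7 averaged 1.65 ± 0.25 in aTX kidneys (range 1.34 to 1.88), 2.81 ± 0.28 in sTX kidneys (2.50 to 3.15) and 4.04 ± 0.32 in ctr kidneys (3.49 to 4.33), so that no group overlapped another. A ratio within an array does not remove wash run, and sTX and ctr kidneys shared no run. The sTX against ctr calls of Cldn10 and Cldn7 were lost with wash run as a block (adjusted p = 0.388 and 0.296). For Cldn10 over Cldn2 the means were 0.11 ± 0.16 in aTX, 0.73 ± 0.23 in sTX and 0.91 ± 0.19 in ctr kidneys, and Cldn10 thus changed by more than Cldn2 in aTX kidneys. These pairs were chosen with the changes known and are given without a test.

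**Figure D3:**
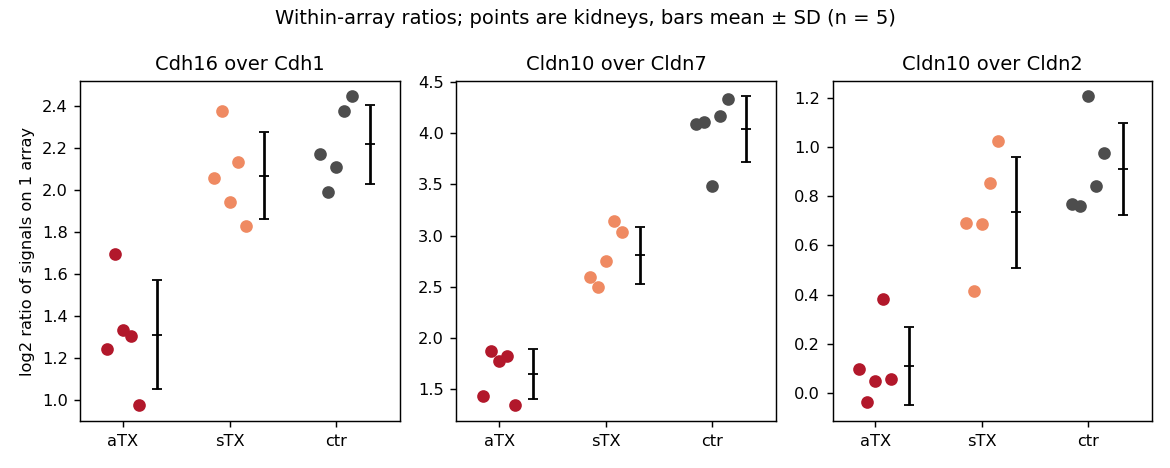
Log2 ratio of the signals of 2 probe sets on the same array (points, 1 per kidney) with mean ± SD (bars, n = 5) in aTX, sTX and ctr kidneys from left to right, for Cdh16 over Cdh1, Cldn10 over Cldn7 and Cldn10 over Cldn2. The vertical axes do not start at 0. The Cldn10 over Cldn7 ratio separates all 3 groups (1.34 to 1.88, 2.50 to 3.15 and 3.49 to 4.33), although sTX and ctr kidneys shared no wash run.

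A kidney sample holds many cell types, and in bulk RNA fewer cells of a type and less RNA per cell cannot be told apart. Marker genes of the segments that carry these claudins fell together in aTX kidneys. Over all probe sets, 20.2% were called higher and 22.2% lower in aTX against ctr kidneys. All 14 proximal tubule markers were lower in aTX than in ctr kidneys (median log2 change -1.06), and their summed signal ranged from 13100 to 18260 in aTX, 25510 to 30780 in sTX and 28680 to 37820 in ctr kidneys. Among thick ascending limb markers, 5 of 6 were lower (median -0.82), the exception being Cldn19. Principal cell markers of the collecting duct were lower in 7 of 8 cases (median -0.90), with sums of 2788 to 3120 in aTX, 5729 to 6770 in sTX and 5068 to 6108 in ctr kidneys. Intercalated cell markers were lower in 6 of 6 (median -0.93). The log2 changes of Cldn10 (-1.38) and Cldn2 (-0.58) thus stood beside a proximal tubule median of -1.06. Those of Cldn3 (-0.71), Cldn4 (1.04) and Cldn7 (1.0) stood beside collecting duct medians of -0.90 and -0.93.

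In sTX against ctr kidneys, 5 of 14 proximal tubule markers were lower (median -0.22, and 9 lower with median -0.41 after centring each array on its median). Over all probe sets, 11.4% were called higher and 6.32% lower in that comparison, and 20.2% and 22.2% in aTX against ctr kidneys. Of the other segments, 2 of 6 thick ascending limb markers were higher and 1 lower (median 0.052, and 1 higher and 2 lower with median -0.14 after that centring). Of 8 principal cell markers 3 were higher (median 0.26), and none was after that centring (1 lower, median 0.068). With wash run as a block no marker of these 3 lists was called in sTX against ctr kidneys. Among markers of other cells, 7 of 8 endothelial markers were lower in aTX than in ctr kidneys (median -1.13). Of 6 podocyte markers 4 were lower and 1 higher (median -0.92). Markers of leukocytes, of fibroblasts and smooth muscle, and of tubular injury were mostly higher in aTX than in ctr kidneys. All 7 leukocyte markers were higher in aTX than in ctr kidneys (median 3.08), with summed signals of 6557 to 8285 in aTX, 1329 to 1800 in sTX and 880.1 to 969.4 in ctr kidneys, and none of the 7 averaged below 10 in any group. T cell markers were higher in 9 of 9 cases (median 4.55) and macrophage markers in 11 of 11 (median 3.57). Fibroblast and smooth muscle markers were higher in 8 of 10 cases in aTX (median 0.85) and in 9 of 10 in sTX kidneys (median 1.32). Tubular injury markers were higher in 7 of 11 cases in aTX (median 2.41) and in 9 of 11 in sTX kidneys (median 1.54). How much of the change of each claudin or cadherin goes with these cell markers was not tested.

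Among the 10 other claudin genes measured, 1 was higher and 5 were lower in aTX than in ctr kidneys (median log2 change -0.59). Beside this list and those that follow, 20.2% of all probe sets were called higher and 22.2% lower in that comparison. In sTX against ctr kidneys these shares were 11.4% and 6.32%. The lists use each gene's brightest probe set. Cldn6, known from embryonic epithelia, averaged 9.02 ± 6.98 in aTX, 44.4 ± 7.03 in sTX and 36.8 ± 16.8 in ctr kidneys (adjusted p = 0.00102 for aTX against ctr). Its aTX mean lay below the array medians of 24.4 to 30.1, near background, so that no fold is given. Cldn5, the claudin of endothelial cells, averaged 57.4 ± 8.50 in aTX, 100.2 ± 12.7 in sTX and 125.0 ± 7.47 in ctr kidneys (-1.13, adjusted p = 4.67e-08), beside 7 of 8 endothelial markers that were lower. Cldn11, which forms tight junctions in myelin and testis, was weak at 13.7 ± 4.90, 25.9 ± 4.40 and 29.2 ± 6.51 in aTX, sTX and ctr kidneys (-1.13, adjusted p = 0.000652). The gene that was higher was Cldnd1, a claudin-domain gene chosen after its values were seen (0.79, adjusted p = 3.32e-08). Cldn8, the partner of claudin-4 in the collecting duct and likewise chosen afterwards, was lower in aTX than in ctr kidneys (-0.28, adjusted p = 0.0010) and higher in sTX than in ctr kidneys (0.26, adjusted p = 0.00550), the second call being lost with wash run as a block (0.32, adjusted p = 0.138).

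Of 22 tight junction scaffold and polarity genes, 2 were higher and 13 lower in aTX than in ctr kidneys (median -0.29). In sTX against ctr kidneys 1 was higher and none lower (median -0.01), although after centring each array on its median 6 were lower (median -0.20). Cgnl1 (paracingulin), which links tight and adherens junctions to the cytoskeleton, averaged 573.6 ± 56.5 in aTX, 1241 ± 82.0 in sTX and 1405 ± 95.3 in ctr kidneys (log2 change of aTX against ctr -1.30, adjusted p = 1.62e-11). Prkcz, the atypical protein kinase C of the polarity complex, averaged 117.0 ± 12.0 in aTX, 230.1 ± 9.34 in sTX and 232.8 ± 20.5 in ctr kidneys (-0.99, adjusted p = 2.05e-09). Ybx3, the Y-box factor that binds the scaffold protein ZO-1, moved upward, at 477.6 ± 65.9 in aTX, 256.1 ± 54.5 in sTX and 140.1 ± 26.4 in ctr kidneys (1.78, adjusted p = 1.14e-09). Tjp1, which encodes ZO-1 itself and was chosen after its values were seen, had a log2 change of -0.21 (adjusted p = 0.0218) that did not pass with wash run as a block (-0.16, adjusted p = 0.127).

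Among 14 catenins, nectins and other cadherin partners, 2 were higher and 6 lower in aTX than in ctr kidneys (median log2 change -0.16). Nectin2, an adhesion molecule of adherens junctions, averaged 147.4 ± 21.5 in aTX, 122.6 ± 11.1 in sTX and 60.8 ± 11 in ctr kidneys (1.28, adjusted p = 8.24e-08). Pdlim1, an actin-associated adaptor, was higher in both grafts, at 231.9 ± 11.6 in aTX and 184.1 ± 14.1 in sTX against 99.9 ± 3.66 in ctr kidneys (aTX against ctr 1.22, adjusted p = 1.26e-11). Ptpru, a receptor phosphatase that acts on catenins, was lower (-1.50, adjusted p = 7.04e-06). The catenins that join classical cadherins to actin, chosen after their values were seen, did not pass the test in aTX against ctr kidneys, with -0.047 for Ctnnb1 (adjusted p = 0.670) and -0.11 for Ctnna1 (adjusted p = 0.223). Plakoglobin (Jup), the catenin shared with desmosomes and chosen likewise, was lower (-0.99, adjusted p = 7.20e-11).

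Other cadherins were mostly weak. Of 15, 1 was higher and 3 lower in aTX than in ctr kidneys (median -0.29). The higher one was Cdh11, chosen after its values were seen, at 234.5 ± 66.0 in aTX, 470.3 ± 68.4 in sTX and 155.3 ± 29.1 in ctr kidneys. Its log2 change was 0.58 in aTX (adjusted p = 0.00686) and 1.61 in sTX against ctr kidneys (adjusted p = 8.38e-07). With wash run as a block the sTX call remained (1.01, adjusted p = 0.0247) and the aTX call was lost (0.34, adjusted p = 0.105). The 3 lower ones, Cdh8, Cdh22 and Cdh23, averaged below 15 in every group, near background, and the Cdh22 call was lost with wash run as a block (adjusted p = 0.298). Of 11 desmosome genes, 2 were higher and 6 lower in aTX than in ctr kidneys (median -0.45). The higher ones, Dsg2 and Dsc2, are named after their values were seen. Dsg2 averaged 105.7 ± 23.5 in aTX, 110.6 ± 17.8 in sTX and 50.6 ± 10.6 in ctr kidneys (1.06, adjusted p = 1.87e-05). Dsc2 averaged 29.7 ± 4.14, 28.8 ± 6.34 and 14.3 ± 4.51 (1.09, adjusted p = 0.000464). Their calls in sTX against ctr kidneys were lost with wash run as a block (adjusted p = 0.229 and 0.263). Pkp4, a plakophilin of cell junctions, averaged 301.3 ± 25.5 in aTX, 499.7 ± 42.5 in sTX and 712.6 ± 80.9 in ctr kidneys (log2 change of aTX against ctr -1.24, adjusted p = 2.27e-10), and Pkp3 averaged 31.6 ± 7.16 in aTX, 58.4 ± 12.0 in sTX and 85.4 ± 18.3 in ctr kidneys (-1.44, adjusted p = 1.33e-06). Pkp1 was weak, with group means of 5.92 in aTX, 14.2 in sTX and 12.4 in ctr kidneys, and its call (adjusted p = 0.0276) did not pass with wash run as a block (adjusted p = 0.0545).

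Of 13 regulators of epithelial junction genes, 4 were higher and 5 lower in aTX than in ctr kidneys (median -0.019). Over all probe sets 20.2% were called higher and 22.2% lower. Zeb2, a repressor of E-cadherin that leukocytes also express, averaged 163.8 ± 16.1 in aTX, 110.9 ± 16.4 in sTX and 53.2 ± 14.6 in ctr kidneys (log2 change of aTX against ctr 1.66, adjusted p = 1.19e-08). Snai1, another such repressor that binds the E-box and was chosen after its values were seen, averaged 36.1 ± 5.79 in aTX, 47.5 ± 6.49 in sTX and 18.8 ± 5.47 in ctr kidneys, higher in aTX (0.98, adjusted p = 0.000307) and in sTX kidneys (1.38, adjusted p = 3.98e-05, and 0.0571 under the wash run block). Cdh1 was not called in either comparison, and its promoter sequence was not available. Of the genes whose promoter windows held the E-box letters, Cldn7 was higher and Ocln and Cldn3 lower in both grafts. Their sTX calls were lost with wash run as a block. Whether Zeb2 or Snai1 acts on any of these genes was not tested. Twist2 was near background (0.50 to 5.26 as group means). The remaining Zeb, Twist and Tcf genes of the list are named after their values were seen. In aTX against ctr kidneys Zeb1 (0.24, adjusted p = 0.179), Twist1 (-0.23, adjusted p = 0.489) and Tcf3 (-0.019, adjusted p = 0.982) did not pass the test. Tcf4 was lower (-0.49, adjusted p = 0.00031). In sTX against ctr kidneys Zeb1 was higher (0.615, adjusted p = 0.00275), a call lost with wash run as a block (adjusted p = 0.299). Pax2, a transcription factor of kidney development, averaged 44.1 ± 9.04 in aTX, 79.5 ± 13.2 in sTX and 132.8 ± 23.9 in ctr kidneys (-1.60, adjusted p = 2.71e-08).

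**Figure D4:**
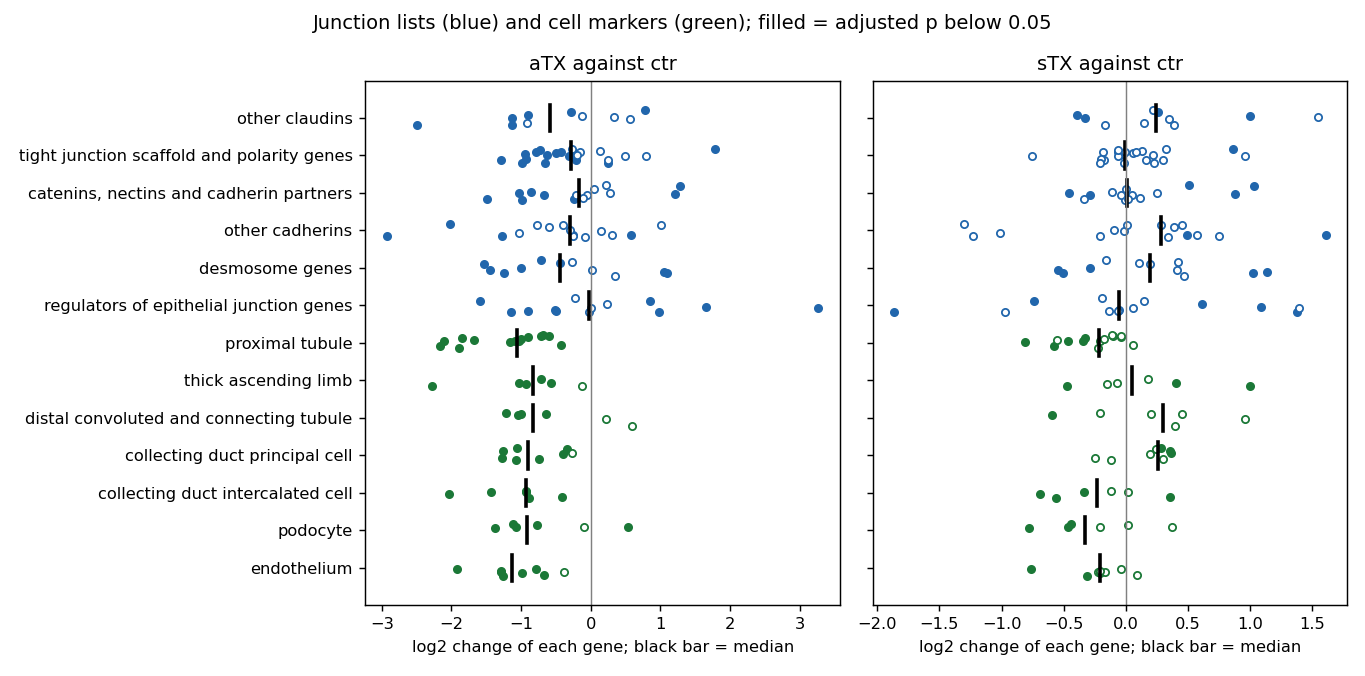
Log2 change of each gene (points, brightest probe set of the gene) in aTX against ctr kidneys on the left and in sTX against ctr kidneys on the right, for 6 lists of junction genes (blue) and 7 lists of kidney cell markers (green), with filled points for adjusted p below 0.05 and black bars for list medians. On the left the medians of the segment, podocyte and endothelial markers lie between -1.13 and -0.82, while those of the junction lists lie between -0.59 and -0.019.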

How the data were processed

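Total RNA of 15 rat kidneys was hybridised to Affymetrix Rat Genome 230 2.0 arrays, and the authors computed MAS5 intensity values, deposited as linear signals scaled to 100. Array values give no counts, so their number (5 kidneys per group) limits the precision. Of 31099 probe sets, 57 controls were left out, 54 signals of 0 were set to 0.05, and log2 values were fitted in limma 3.58.1 (R 4.3.3) with all 15 arrays in 1 model (lmFit, contrasts.fit, eBayes with an intensity trend), with Benjamini-Hochberg adjustment over 31042 probe sets. Fold changes are ratios of geometric means. Symbols came from the platform annotation (20826 probe sets with 1 symbol, 436 with several, 9780 unnamed here). The methods' t-test at an unadjusted p below 0.001 was an alternative. Members, lists and ratios were chosen with earlier results of these data known. All member probe sets are named and, per junction list, up to 3 called genes with the largest change in aTX against ctr, using each gene's brightest probe set. Wash runs were inferred from the hybridization times in deposited instrument records, with a cut at gaps of over an hour. The code was tested on simulated data. Figures were drawn with matplotlib 3.10.9 (Python 3.11.15).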

Additional observations from a re-analysis of the deposited data

Results flagged for a closer look

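Within each group of 5 arrays, the highest or lowest signal was set against the others by its gap over the range, with a critical value of 0.71. Of 42 groups tested 2 passed, and chance alone flags about 1 group in 20, though the groups share arrays and are not independent. For Cldn7, ctr 3 was the highest control at 157.0, where the others lay between 93.2 and 105.2 (ratio 0.812). Without ctr 3 both graft changes of Cldn7 kept their direction and their call. The same kidney was the highest control for Cldn3, Cldn4, Cldn16, Cdh16, Ocln (1378753_at) and Cdh1 (1386947_at). It was the lowest for Cldn2 and Cldn1 (1396150_at). For the occludin probe set 1398281_at, ctr 4 was the lowest control at 177.7, where the others lay between 240.0 and 265.1 (ratio 0.713). Without ctr 4 both graft changes of this probe set kept their direction and their call.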

How the results depend on the processing

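Of 14 probe sets, 11 were called in aTX against ctr kidneys, and this count stayed between 11 and 12 over fits that each left out 1 array, but was 6 by the methods' t-test at an unadjusted p below 0.001. In sTX against ctr kidneys 9 were called, with 8 to 11 over the left-out arrays, 2 by the methods' t-test at that threshold and 1 with wash run as a block, and no value within 1 wash run could be computed. The 7 calls of aTX against sTX kidneys were 7 in every fit that left out 1 array. The numbers in the sample titles paired no samples (0 of 15 same-numbered pairs correlated over 0.1, range -0.019 to 0.027), and with the replicate number as a block 11, 8 and 7 were called in the 3 comparisons, the change being the Cldn16 call of sTX against ctr kidneys (0.42, adjusted p = 0.0775). Besides calls already given, that of the Cldn1 probe set 1383946_at in aTX against ctr kidneys was lost within the first wash run (0.79, adjusted p = 0.0968), that of the occludin probe set 1398281_at in aTX against sTX kidneys after centring each array on its median (-0.22), that of the other occludin probe set in sTX against ctr kidneys by the adjusted methods' t-test (-0.37), and Cldn2 in sTX against ctr kidneys gained a call after centring (-0.39). The Cldn16 call of sTX against ctr kidneys was also lost after quantile normalization (0.39), without the intensity trend, with 2 groups in the fit, by the adjusted methods' t-test and with the station block (0.33). A sign turned in uncalled values alone. For sTX against ctr kidneys these were Cdh1 (1386947_at) after centring (-0.023) and with wash run as a block (-0.06), and Cdh16 after centring (-0.173), without ctr 1 (-0.031) and without sTX 2 (-0.036, range over left-out arrays -0.036 to 0.081). For aTX against sTX kidneys they were Cldn1 (1396150_at) after centring (0.056), without aTX 4 (0.008) and without sTX 2 (0.035, range over left-out arrays -0.163 to 0.035), and Cdh1 after centring (0.072), with wash run as a block (0.091) and within 1 wash run (0.091). The cause was not tested. Adding 16 to every signal left all 3 counts at 11, 9 and 7 and made the changes of the weak Cldn1 probe sets smaller (1383946_at in aTX against ctr kidneys 0.35, against 0.78 as reported). Centring moved the median of all probe sets in sTX against ctr kidneys to -0.106, against 0.088 as reported, where the calls were 1812 higher and 4724 lower, beside 3539 and 1961 as reported and 2807 and 2388 after quantile normalization. In aTX against sTX kidneys centring moved that median to -0.057, against -0.177, and gave 5427 higher and 5242 lower, beside 4327 and 6857. Using the fluidics station as a block, chosen after the records were seen, gave 11, 8 and 7 calls.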
